A study of Mus musculus with 9 samples.

Results

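The 10 genes described here make and use serine and one-carbon units: Phgdh, Psat1, Psph, Shmt1, Shmt2, Mthfd2, Mthfd1l, Aldh1l2, Slc1a4 and Asns. They were chosen by name, as a pathway reported to need the H3K9 methyltransferase G9a, with earlier results of these data known. Each was found by Ensembl identifier among the 47937 genes of the count table. All 10 were among the 15540 genes with enough counts to be tested. Total RNA was sequenced from mouse embryonic fibroblasts (MEFs) of 3 genotypes, with 3 libraries each. WT cells keep all H3K9 lysine methyltransferases. In S1S2 both Suv39h genes, Suv39h1 and Suv39h2, are disrupted, and in G9Gl the genes of G9a (Ehmt2) and Glp (Ehmt1). According to the methods of the study, all lines share an Eset1-conditional parental clone with a tamoxifen-inducible Cre, which serves as the WT, and each mutant is a single clone made by CRISPR/Cas9 and picked for loss of the target proteins. After the disruption, a construct with inducible Cre and a puromycin resistance gene was introduced again, and the lines were kept under puromycin selection. The methods do not say whether the WT cells received it. These methods were taken to hold for these libraries too. Genotype therefore cannot be told apart from clone, or from this construct and selection if only the mutants had them. The p-values measure the spread between cultures of a clone. As bulk RNA was measured, fewer cells expressing a gene and less RNA per cell cannot be told apart either.

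The serine synthesis pathway branches from glycolysis. Phgdh oxidises 3-phosphoglycerate, Psat1 transaminates the product and Psph removes the phosphate to give serine. Serine hydroxymethyltransferases, Shmt1 in the cytosol and Shmt2 in mitochondria, turn serine into glycine and load the released carbon onto folate, and Mthfd2, Mthfd1l and Aldh1l2 process that carbon in mitochondria for purines, formate and NADPH. Slc1a4 carries serine and other neutral amino acids across the plasma membrane, and Asns makes asparagine. Many of these genes are known targets of Atf4, the transcription factor that responds to amino acid shortage, and G9a has been reported to support transcription of serine pathway genes in cancer cells.

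Atf4 binds with C/EBP partners to an element with the core TGATGNAA. This core and the E-box CACGTG, which Myc binds, were searched on both strands in RefSeq promoters (GRCm38.p6) from 250 bases before to 50 bases after the gene start. Of the 10 genes, all but Aldh1l2 had a promoter sequence, and Psat1 had 2. TGATGNAA was found in the promoters of Asns and Slc1a4 and in 3.97% of all 32851 promoters. CACGTG was found in 0 of these 9 genes and in 7.15% of all promoters. The promoters of Asns and Slc1a4 are shown as those that hold a match, in capitals, and that of Phgdh as the gene whose level moved least between genotypes. The match in Asns (chr6:7693160-7693459, minus strand) reads TGATGAAA and begins at position -23 from the start. In Slc1a4 (chr11:20332664-20332963, minus strand) the match lies on the opposite strand of the gene and begins at position -4. The Phgdh promoter (chr3:98339920-98340219, minus strand) holds neither motif.
Asns: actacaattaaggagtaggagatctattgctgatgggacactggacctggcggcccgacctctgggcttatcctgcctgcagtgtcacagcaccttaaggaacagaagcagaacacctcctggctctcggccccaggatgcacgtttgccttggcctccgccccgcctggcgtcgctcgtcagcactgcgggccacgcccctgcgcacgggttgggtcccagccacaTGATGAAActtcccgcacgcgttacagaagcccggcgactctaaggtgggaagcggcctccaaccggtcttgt
Slc1a4: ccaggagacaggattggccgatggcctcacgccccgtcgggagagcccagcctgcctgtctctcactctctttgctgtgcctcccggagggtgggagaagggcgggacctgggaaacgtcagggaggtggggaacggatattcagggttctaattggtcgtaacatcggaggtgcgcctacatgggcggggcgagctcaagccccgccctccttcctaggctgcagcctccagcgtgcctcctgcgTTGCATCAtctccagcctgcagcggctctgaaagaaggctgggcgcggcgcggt
Phgdh: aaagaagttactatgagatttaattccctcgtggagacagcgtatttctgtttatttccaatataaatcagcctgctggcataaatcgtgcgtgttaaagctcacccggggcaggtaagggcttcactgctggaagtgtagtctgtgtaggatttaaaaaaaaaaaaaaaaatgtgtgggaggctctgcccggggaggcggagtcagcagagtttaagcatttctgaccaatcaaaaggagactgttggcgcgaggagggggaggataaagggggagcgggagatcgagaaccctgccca

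Libraries held between 21319778 and 32157623 gene counts, and S1S2 replicate 3 was the smallest. Each of the 10 genes had at least 981 counts in every library. In G9Gl, Ehmt1 and Ehmt2 transcripts fell to log2 fold changes of -1.04 and -1.20 against WT, and in S1S2 Suv39h1 fell by 1.36 on the log2 scale while Suv39h2 rose by 0.70. A frameshift need not remove the transcript, so these levels do not test the loss of the proteins. Levels are given as CPM, the counts of a gene scaled to a common library size by TMM. Of 8 fibroblast markers, Col1a1, Vim and Fn1 had means of at least 1250 CPM in every genotype. The means of single markers moved in both directions. Vim was 1458 CPM in WT, 2399 CPM in S1S2 and 1250.4 CPM in G9Gl, Col1a2 was 2395, 395 and 2030 CPM and Col3a1 was 1527, 190.1 and 844 CPM. Pdgfra was 14.5, 3.54 and 4.02 CPM, Pdgfrb was 54.0, 24.5 and 21.4 CPM and Thy1 was 4.98, 2.05 and 38.3 CPM in the same order. The summed level of the 8 was 9795 to 11294 CPM in WT, 7369 to 7430 CPM in S1S2 and 7718 to 8573 CPM in G9Gl. The summed level of 5 epithelial markers was 2.42 to 3.26 CPM in WT, 24.5 to 28.1 CPM in S1S2 and 9.97 to 15.7 CPM in G9Gl. Most of this was Krt19, with means of 2.28, 20.98 and 13.26 CPM in WT, S1S2 and G9Gl, and in S1S2 also Krt8, with 4.68 CPM, while Epcam and Cdh1 were at or below 0.266 CPM in every genotype. The 3 endothelial markers summed to 0.123 to 0.193 CPM in WT, 1.55 to 1.70 CPM in S1S2 and 0.647 to 1.90 CPM in G9Gl. The 3 blood markers summed to 3.21 to 4.63 CPM over all libraries, nearly all of it Cd68, and Cd3e had 0 counts. The 3 muscle markers summed to 1.97 to 3.48 CPM in WT and S1S2 and 7.22 to 7.96 CPM in G9Gl, nearly all of it Des, and Myod1 had 0 counts. Of the pluripotency markers Pou5f1 had 0 counts and Nanog at most 18. The part of these shifts in the results for serine and one-carbon genes was not tested.

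To compare genes with each other, CPM was divided by the exonic length in kilobases. In WT, Phgdh had the highest level at 165 ± 5.99 CPM per kb (SD, n = 3), followed by Psat1 at 155 ± 14.3, Shmt2 at 145 ± 6.35 and Asns at 121 ± 24.5 CPM per kb. Each of them overlapped the next in this order over the libraries, whereas all Phgdh libraries lay above all libraries of Shmt2 and Asns. A step separated them from Mthfd1l, Mthfd2 and Aldh1l2, which had 54.8 ± 2.34, 50.8 ± 4.19 and 49.9 ± 10.7 CPM per kb and did not differ beyond their spread. Psph, Slc1a4 and Shmt1 were lowest, with 31.2 ± 5.37, 25.5 ± 2.67 and 16.8 ± 1.07 CPM per kb. In G9Gl the range between the highest and the lowest gene was 8.05-fold, compared with 9.84-fold in WT. In S1S2 it was 20.2-fold, because Aldh1l2 dropped to the lowest level of the set, 8.04 ± 3.60 CPM per kb, below all libraries of the next gene, Slc1a4. Phgdh had the highest mean in each genotype.

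In S1S2 most of these genes fell, while in G9Gl most did not pass the test. At an adjusted p of at most 0.01 (edgeR, Benjamini-Hochberg over all 15540 genes), 7 of 10 genes were lower and 1 was higher in S1S2 than in WT, against 17.6% and 20.3% of all tested genes. In G9Gl 1 gene was lower and 1 was higher than in WT, against 16.0% and 19.0% of all genes. The median log2 fold change of the 10 genes was -0.77 in S1S2 and -0.09 in G9Gl, whereas the median of all genes was -0.0032 and -0.0067. With a fold of at least 2 added, 3 genes were called lower in S1S2, against 4.34% of all genes, and 0 were called in either direction in G9Gl, against 10.2%. The 3 were Aldh1l2, Asns and Psph, and the last 2 of these lay close to the limit. The count was 1 without WT replicate 3, without S1S2 replicate 1 or without S1S2 replicate 2, and 4 without S1S2 replicate 3. All libraries of S1S2 lay apart from all libraries of WT for 8 genes, against 56.0% of all genes, and in G9Gl for 3 genes, against 52.8%.

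**Figure D1:**
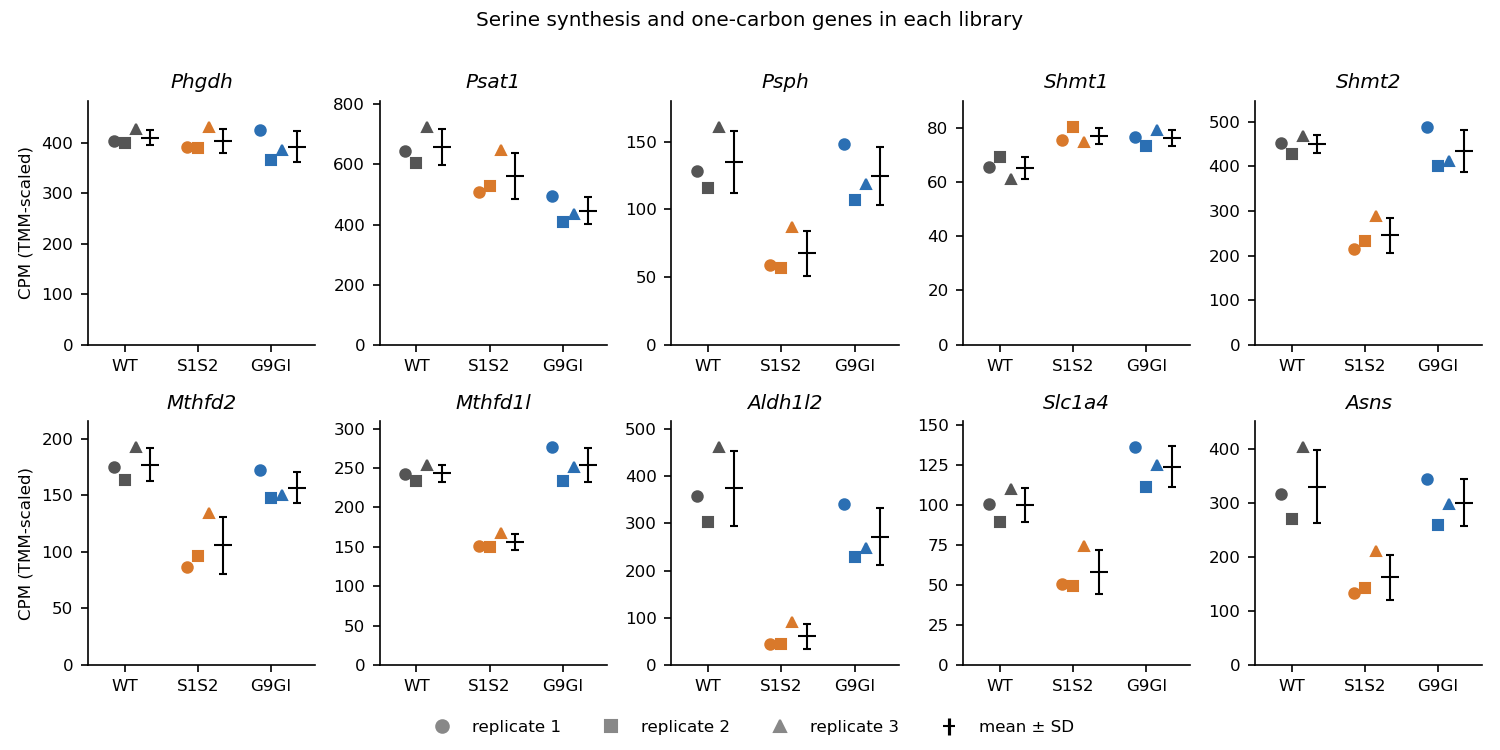
Level of each gene in each library, in CPM scaled by TMM (vertical axes from 0, a separate scale per gene), by genotype. Symbols mark the replicates and the bars give the mean ± SD of 3 libraries; in 7 of the 10 panels the S1S2 libraries lie below all WT and all G9Gl libraries, and the Phgdh panel is nearly level.

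Phgdh, the first enzyme of serine synthesis, had 404, 400.2 and 428 CPM in WT, 392, 390.0 and 432 CPM in S1S2 and 426, 366 and 387 CPM in G9Gl. The 3 genotypes overlapped. Its log2 fold change against WT was -0.02 ± 0.06 (SE) for S1S2, with an adjusted p of 0.785, and -0.06 ± 0.07 for G9Gl, with an adjusted p of 0.375. Of the 75-base stretches of its transcripts, 35.8% also occur in 13 other genes of the annotation, and reads from these stretches cannot be assigned with certainty. The 6 of those genes in the count table together held 57 to 86 counts per library, which is 0.471% to 0.844% of the Phgdh counts. Among the genes with the profile most like that of Phgdh, by Euclidean distance over the 9 libraries, were Dnaja3 (0.103) and Fbxl20 (0.128).

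Psat1, the second enzyme, had 646, 604 and 724 CPM in WT, 507, 529 and 648 CPM in S1S2 and 495, 409 and 434 CPM in G9Gl. All G9Gl libraries were below all WT libraries, and S1S2 overlapped WT through its replicate 3. At the threshold used Psat1 was the single gene of the set that fell in G9Gl, with a log2 fold change of -0.56 ± 0.11 (adjusted p = 3.23e-05). In S1S2 its log2 fold change was -0.23 ± 0.13 (adjusted p = 0.0330), a value that passed without S1S2 replicate 3 (adjusted p = 0.00141) and did not with DESeq2 (adjusted p = 0.146). Psat1 lies on chromosome 19 (15904678 to 15947337, GRCm38), whose 487 tested genes had a median shift of 0.34 in S1S2 and -0.17 in G9Gl on the log2 scale. Relative to the other genes of its chromosome, Psat1 was lower in both mutants, by a log2 fold change of -0.56 in S1S2 (adjusted p = 3.86e-05) and of -0.39 in G9Gl (adjusted p = 0.00130).

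Psph, the third enzyme, had 128, 116 and 161 CPM in WT, 58.7, 56.7 and 86.8 CPM in S1S2 and 148, 107 and 119 CPM in G9Gl. Every S1S2 library was below every other library. The level in S1S2 was 2.01-fold lower than in WT, a log2 fold change of -1.01 ± 0.24 (adjusted p = 1.80e-05), and in G9Gl the log2 fold change was -0.11 ± 0.20 (adjusted p = 0.530). Psph overlaps Cct6a on the opposite strand, and 8.07% of its 75-base stretches are shared with it. Cct6a, a chaperonin subunit, had log2 fold changes of 0.0041 in S1S2 and -0.02 in G9Gl, with neither past the test.

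The serine hydroxymethyltransferases moved in opposite directions in S1S2. Mitochondrial Shmt2 had 453, 429 and 468 CPM in WT, 214, 232 and 289 CPM in S1S2 and 488, 402 and 413 CPM in G9Gl. It was 1.84-fold lower in S1S2, without overlap (log2 fold change -0.88 ± 0.14, adjusted p = 2.62e-07), and the log2 fold change in G9Gl was -0.05 ± 0.10 (adjusted p = 0.661). Cytosolic Shmt1 had 65.4, 69.2 and 60.8 CPM in WT, 75.5, 80.1 and 74.6 CPM in S1S2 and 76.4, 73.2 and 79.0 CPM in G9Gl. At the threshold used it was the single gene of the set that rose against WT, and it did so in both mutants, by log2 fold changes of 0.24 ± 0.06 in S1S2 (adjusted p = 0.00138) and of 0.23 ± 0.06 in G9Gl (adjusted p = 0.00197). These rises rest on small differences, and the adjusted p was 0.0144 in S1S2 without S1S2 replicate 2 and 0.0133 in G9Gl without G9Gl replicate 3. Shmt1 overlaps Smcr8 on the opposite strand over 4.74% of its exonic length, and Smcr8 had log2 fold changes of 0.14 in S1S2 (adjusted p = 0.0223) and of -0.05 in G9Gl (adjusted p = 0.377).

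Of the mitochondrial one-carbon enzymes in the set, Aldh1l2, Mthfd2 and Mthfd1l were lower in S1S2, as was Shmt2. Aldh1l2, which oxidises 10-formyltetrahydrofolate and yields NADPH, changed most. It had 359, 303 and 461 CPM in WT, 45.1, 44.3 and 91.5 CPM in S1S2 and 341, 228 and 247 CPM in G9Gl. The highest S1S2 library was thus below the lowest library of any other genotype, and the mean was 6.24-fold lower than in WT (log2 fold change -2.64 ± 0.39, adjusted p = 2.88e-08). In G9Gl the log2 fold change of Aldh1l2 was -0.46 ± 0.25 (adjusted p = 0.0710), and its libraries overlapped WT. Of its 75-base stretches, 12.8% are shared with D10Wsu102e on the opposite strand, which had log2 fold changes of -0.0092 in S1S2 (adjusted p = 0.894) and of 0.28 in G9Gl (adjusted p = 1.09e-04).

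Mthfd2, the mitochondrial methylenetetrahydrofolate dehydrogenase, had 175, 163 and 192 CPM in WT, 86.6, 96.5 and 134 CPM in S1S2 and 172, 148 and 151 CPM in G9Gl. It was 1.68-fold lower in S1S2 (log2 fold change -0.74 ± 0.20, adjusted p = 2.71e-05), with a log2 fold change of -0.17 ± 0.10 in G9Gl (adjusted p = 0.205). Mthfd1l, which releases formate, had the smallest SE of the falling genes, with 243, 233 and 254 CPM in WT, 152, 149 and 168 CPM in S1S2 and 276, 234 and 251 CPM in G9Gl. It was 1.56-fold lower in S1S2 (log2 fold change -0.64 ± 0.06, adjusted p = 1.00e-07), and its log2 fold change in G9Gl was 0.06 ± 0.08 (adjusted p = 0.407). Mthfd1l, Aldh1l2 and Shmt2 all lie on chromosome 10, whose 691 tested genes had a median shift of -0.15 in S1S2 and 0.04 in G9Gl on the log2 scale, smaller than that of each of these genes in S1S2.

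Slc1a4, the neutral amino acid transporter, had 100.3, 89.3 and 110.2 CPM in WT, 50.4, 49.6 and 74.1 CPM in S1S2 and 136, 111 and 125 CPM in G9Gl. The libraries formed 3 groups without overlap, with S1S2 lowest and G9Gl highest. The fall in S1S2 was 1.73-fold (log2 fold change -0.79 ± 0.21, adjusted p = 2.67e-05). In G9Gl the log2 fold change was 0.31 ± 0.12, which did not pass (adjusted p = 0.0307). Over the alternatives its adjusted p was 5.05e-08 without a filter on low counts and otherwise ranged from 0.00273 with the replicate block to 0.171 with DESeq2. Asns, asparagine synthetase, had 317, 270.1 and 402 CPM in WT, 133, 142 and 210 CPM in S1S2 and 344, 258 and 298 CPM in G9Gl. It was 2.04-fold lower in S1S2 (log2 fold change -1.03 ± 0.26, adjusted p = 1.94e-05), with a log2 fold change of -0.14 ± 0.21 in G9Gl (adjusted p = 0.477). The genes with the profile most like that of Asns were Phf10 (Euclidean distance 0.289), Arl14ep (0.290) and Vegfa (0.324).

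**Figure D2:**
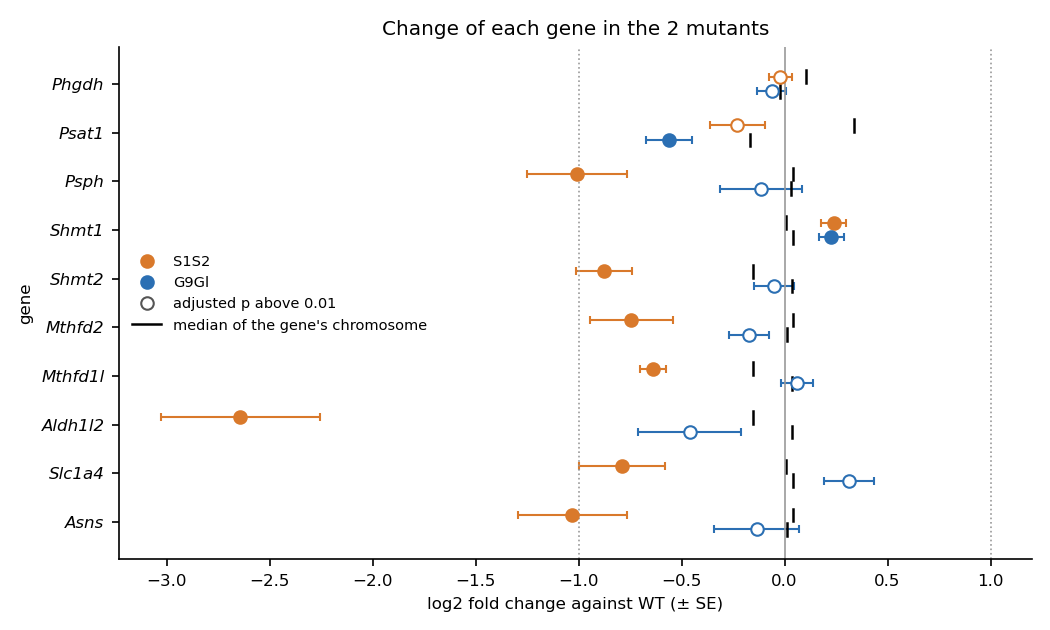
Log2 fold change of each gene against WT in S1S2 (orange) and G9Gl (blue), with the SE from the spread between libraries. Filled points passed an adjusted p of 0.01, short black lines give the median of all tested genes on the gene's chromosome and dotted lines mark a fold of 2; 7 orange points are filled to the left of 0, and of the blue points Psat1 is filled to the left and Shmt1 to the right.

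The comparison of the mutants with each other, which does not use the WT libraries as a reference, tested whether their levels differed. In G9Gl 7 of the 10 genes were higher than in S1S2, against 21.6% of all genes, and 1 was lower, against 21.1%. With a fold of at least 2 these were 2 genes, Aldh1l2 and Slc1a4, both higher, against 7.97% of all genes. This count was 1 without S1S2 replicate 2 and 4 without S1S2 replicate 3. For 8 genes the libraries of the mutants did not overlap, against 60.8% of all genes. The median log2 fold change of G9Gl against S1S2 was 0.76 over the 10 genes and 0.00016 over all genes. Aldh1l2 was 4.54-fold higher in G9Gl (log2 fold change 2.18 ± 0.39, adjusted p = 1.92e-07) and Slc1a4 2.14-fold higher (1.10 ± 0.21, adjusted p = 3.99e-07). Psph, Shmt2, Mthfd2, Mthfd1l and Asns were higher by log2 fold changes of 0.57 to 0.89. The log2 fold change between the mutants was -0.04 ± 0.08 for Phgdh (adjusted p = 0.553) and -0.01 ± 0.04 for Shmt1 (adjusted p = 0.885). Psat1 was lower in G9Gl (-0.33 ± 0.14, adjusted p = 0.00331), but relative to the other genes of chromosome 19, which had a median of -0.52 in this comparison, its log2 fold change was 0.17 (adjusted p = 0.107). The call for Psat1 was also lost without S1S2 replicate 3, G9Gl replicate 2 or G9Gl replicate 3 (adjusted p = 0.0246, 0.0213 and 0.0178), and with DESeq2 (adjusted p = 0.0253).

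Within each genotype the cultures also differed in these genes, a pattern noticed after the values were seen. WT replicate 3, S1S2 replicate 3 and G9Gl replicate 1 were the highest of their genotype in 9 of the 10 genes each, compared with 39.5%, 36.4% and 35.2% of all tested genes. WT replicate 2 was the lowest in 9 genes and G9Gl replicate 2 in all 10, compared with 35.9% and 35.2% of all tested genes. The exception among the highest was Shmt1, which was lowest in WT replicate 3 and S1S2 replicate 3. The median deviation of the 10 genes from the mean of the genotype was 0.31 on the log2 scale in S1S2 replicate 3, 0.15 in G9Gl replicate 1 and 0.13 in WT replicate 3, while the median over all genes was 0.0029 or less in these libraries. The size of the deviation followed the gene, with Aldh1l2 most variable (coefficients of variation of 21.5% in WT and 44.8% in S1S2) and Phgdh among the least (3.63% and 5.81%). The 3 high libraries held 30177597, 21319778 and 28427619 counts, and those of WT and S1S2 had the lowest totals of their genotypes. The part of depth in this pattern was not tested. Leaving out S1S2 replicate 3 made the falls in S1S2 larger (log2 fold change of Aldh1l2 -3.07, of Asns -1.26), and leaving out WT replicate 3 made those of Asns and Psph smaller (both -0.87), with all 7 falls kept under each of these alternatives.

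**Figure D3:**
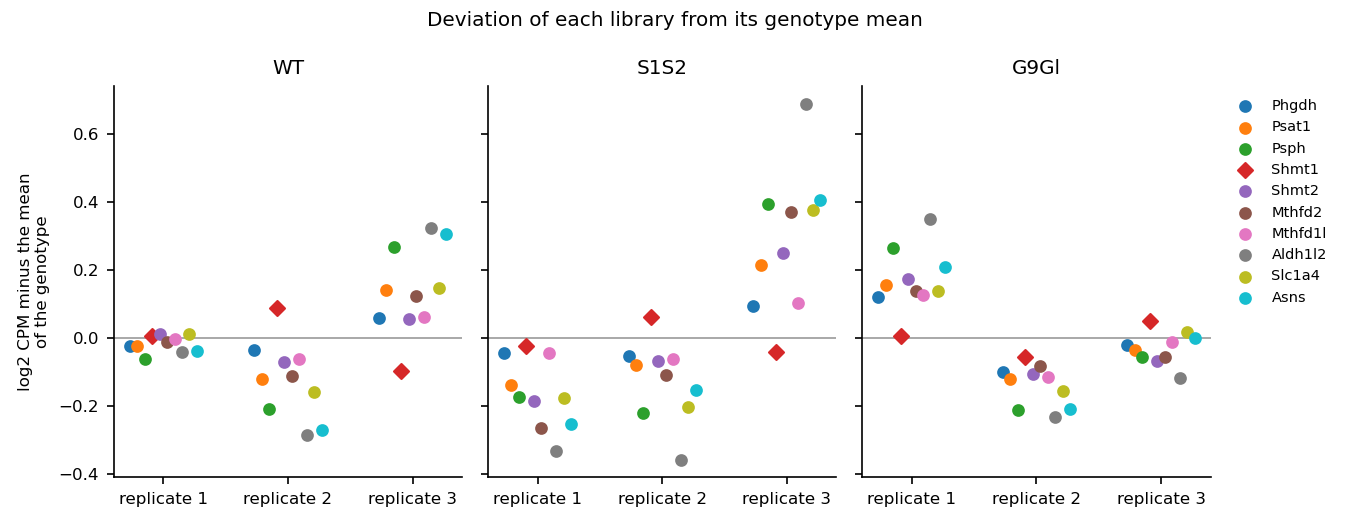
Deviation of each gene in each library from the mean of its genotype, in log2 CPM. Each point is a gene, the diamond is Shmt1, and the line at 0 is the mean of the genotype; nearly all points lie above the line in WT replicate 3, S1S2 replicate 3 and G9Gl replicate 1.

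Lists of other genes, chosen with earlier results of these data known, were examined beside this set. Of 29 tested Atf4 and amino acid response targets, none of which belongs to the 10 genes, 21 were lower and 0 higher in S1S2, with a median log2 fold change of -0.78. These are 72.4% and 0% of the list, against 17.6% and 20.3% of all tested genes. In G9Gl 2 were lower and 3 higher, with a median of 0.03, which are 6.90% and 10.3%, below the 16.0% and 19.0% of all genes. The largest falls in S1S2 were those of Slc7a11, the cystine transporter, from 31.5 ± 9.50 to 1.03 ± 0.40 CPM (log2 fold change -4.98, adjusted p = 1.86e-09), and of the lipoprotein receptor Vldlr, from 115 ± 34.8 to 12.9 ± 6.37 CPM (-3.17, adjusted p = 2.23e-08). In G9Gl Slc7a11 rose to 55.3 ± 17.2 CPM (0.81, adjusted p = 0.00168) and Cth, which makes cysteine from cystathionine, rose by 0.73 (adjusted p = 0.00433), while Vldlr fell by 0.74 on the log2 scale (adjusted p = 0.00945) and Ddit4, an inhibitor of mTORC1, fell by 0.41 (adjusted p = 0.00564). The calls in G9Gl were fragile, since 0 of the 29 genes passed under DESeq2 and 13 without a filter on low counts, 1 without WT replicate 1 or without G9Gl replicate 1, and 3 without G9Gl replicate 3. Of 12 cytosolic aminoacyl-tRNA synthetases, which charge tRNAs, 10 were lower in S1S2 (83.3%, median -0.51), with the largest falls in Lars (-0.80, adjusted p = 4.36e-06) and Eprs (-0.74, adjusted p = 1.30e-06). In G9Gl 1 was higher (8.33%), Wars (0.25, adjusted p = 0.00523), and 1 lower, Eprs (-0.31, adjusted p = 0.00571), with a median of 0.0021, and 0 passed without WT replicate 1 or without G9Gl replicate 3. The libraries that stood high for the serine genes stood high here as well, with S1S2 replicate 3 the highest of its genotype for 29 of the 29 targets and 12 of the 12 synthetases, WT replicate 3 for 25 and 12, and G9Gl replicate 1 for 27 and 12.

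Of the 11 regulators examined, 2 were higher and 2 lower in S1S2 (36.4%), and 2 were higher and 0 lower in G9Gl (18.2%). Of all tested genes, 37.9% and 34.99% passed in either direction. Atf4 itself fell in S1S2 from 623 to 373 ± 67.4 CPM (log2 fold change -0.74 ± 0.18, adjusted p = 1.57e-05). Its log2 fold change in G9Gl was -0.05 ± 0.14 (adjusted p = 0.745). Nfe2l2, the oxidative stress factor Nrf2, fell by 0.36 on the log2 scale in S1S2 (adjusted p = 8.58e-05). Myc rose in both mutants, by 0.35 in S1S2 (adjusted p = 2.52e-04) and by 0.46 in G9Gl (adjusted p = 1.38e-05). The H3K9 demethylase gene Kdm4c rose by 0.23 in S1S2 (adjusted p = 0.00471). Eif2ak2, the kinase PKR that phosphorylates eIF2alpha in response to double-stranded RNA, rose by 0.65 in G9Gl (adjusted p = 1.37e-08) and had 0.09 in S1S2 (adjusted p = 0.162). The other eIF2alpha kinase genes Eif2ak1, Eif2ak3 and Eif2ak4, their substrate Eif2s1, and Mycn and Trp53 passed in neither mutant, with log2 fold changes from -0.30 to 0.18.

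**Figure D4:**
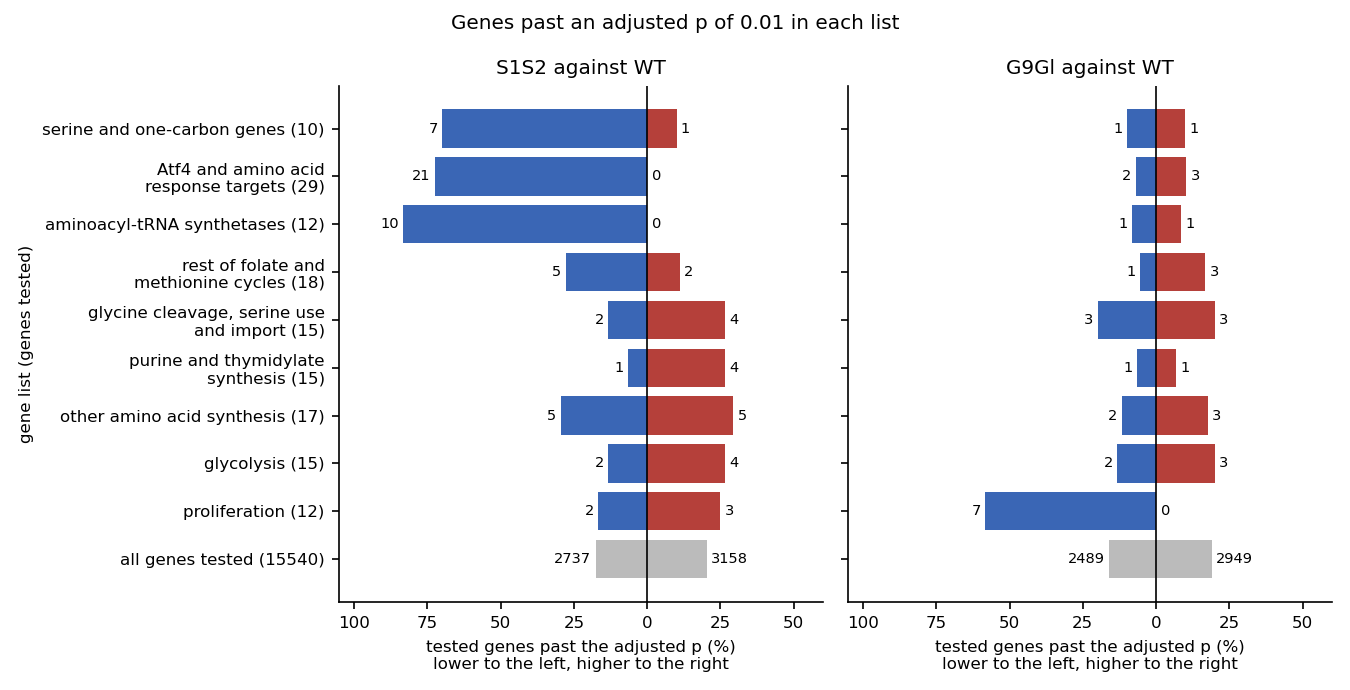
Share of the tested genes of each list that passed an adjusted p of 0.01 against WT, lower to the left and higher to the right (horizontal axes in percent, counts at the bar ends, genes tested in brackets), in S1S2 and G9Gl. The grey bars are all 15540 tested genes; in S1S2 the first 3 lists reach 7 of 10, 21 of 29 and 10 of 12 genes on the lower side.

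Of all tested genes, 37.9% passed in S1S2 and 34.99% in G9Gl in either direction, and the neighbouring pathways lay near or below these shares in most cases. In S1S2 the shares were 38.9% for the folate and methionine list, 40.0% for the glycine and serine use list, 33.3% for purine synthesis, 58.8% for other amino acid synthesis, 40.0% for glycolysis and 41.7% for proliferation. In G9Gl they were 22.2%, 40.0%, 13.3%, 29.4%, 33.3% and 58.3%. Among 18 tested genes of the rest of the folate and methionine cycles, 2 were higher and 5 lower in S1S2 (median log2 fold change -0.09) and 3 higher and 1 lower in G9Gl (median 0.0066). The 7 calls in S1S2 became 3 without S1S2 replicate 1 and 4 without WT replicate 1, WT replicate 2, S1S2 replicate 2 or S1S2 replicate 3. In S1S2 the mitochondrial folate carrier gene Slc25a32 fell (-0.35, adjusted p = 1.07e-04). Mthfs rose there from 0.313 to 1.10 CPM (1.82, adjusted p = 3.82e-04). In G9Gl the folate transporter gene Slc46a1 and the hydrolase gene Ggh rose (0.72 and 0.47, adjusted p = 5.48e-05 and 9.58e-04) and the methionine synthase gene Mtr fell (-0.28, adjusted p = 2.22e-04). Among 15 genes of glycine cleavage, serine use and mitochondrial serine import, 4 were higher and 2 lower in S1S2 (median -0.02) and 3 higher and 3 lower in G9Gl (median -0.04), with 3 calls in S1S2 under the chromosome offset and 3 in G9Gl without WT replicate 1. Phosphatidylserine synthase Ptdss1 rose in S1S2 from 60.4 to 86.4 CPM (0.52, adjusted p = 5.04e-08), Cth fell there (-1.66, adjusted p = 1.28e-05), and Gcat, which breaks down threonine to glycine, fell in G9Gl (-0.71, adjusted p = 1.71e-09).

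The list of 15 purine and thymidylate synthesis genes covers pathways that use one-carbon units, and not only the steps that use them. In S1S2 4 of these genes were higher and 1 lower (median 0.04), and in G9Gl 1 was higher and 1 lower (median -0.0088). There were 8 calls in S1S2 without WT replicate 3, and 1 in G9Gl without WT replicate 1, G9Gl replicate 1 or G9Gl replicate 2. The largest rise in S1S2 was that of Impdh1 (0.64, adjusted p = 1.03e-05), and in G9Gl that of Prps2 (0.50, adjusted p = 1.21e-07). Of 17 genes of other non-essential amino acid synthesis, 5 were higher and 5 lower in S1S2 (median 0.09) and 3 higher and 2 lower in G9Gl (median -0.05). The largest falls in S1S2 were those of Pycr1, which makes proline, from 29.2 ± 3.69 to 10.6 ± 3.06 CPM (-1.47, adjusted p = 3.41e-07), and Gpt2, mitochondrial alanine transaminase (-1.21, adjusted p = 1.27e-05), both of which are also on the list of Atf4 targets. Of 15 glycolysis genes, upstream of Phgdh, 4 were higher and 2 lower in S1S2 (median -0.0096) and 3 higher and 2 lower in G9Gl (median -0.02), with Pfkp higher by 1.39 in G9Gl (adjusted p = 1.05e-11). Of 12 proliferation genes, 3 were higher and 2 lower in S1S2 (median 0.12), and 0 were higher and 7 lower in G9Gl (median -0.16), the lowest log2 fold change being -0.24. These 7 became 3 without G9Gl replicate 1.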

How the data were processed

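RNA-seq was performed on 9 MEF libraries. According to the methods of the study, reads were trimmed (cutadapt), mapped to GRCm38 (STAR) and quantified per gene with TEtranscripts. Of these tools, the submitters' processing notes for these libraries name STAR, version 2.5.2b. The deposited values are raw counts per Ensembl gene. The annotation release and the strand setting of the counting are not given in the sources used here. Gene names, positions and exonic lengths came from GENCODE M21, which matched 47310 of 47937 identifiers.

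Counts were fitted in R 4.3.3 with the quasi-likelihood test of edgeR 4.0.16 (filterByExpr, TMM), with 1 coefficient per genotype, and p-values were adjusted by Benjamini-Hochberg over 15540 genes. A gene was called at an adjusted p of at most 0.01, and also counted at a fold of at least 2. The SE comes from the spread of log2 CPM between libraries (prior count of 2). No replicate was a duplicate of another (chi-square of the counts of 2.59 to 24.5 per degree of freedom). Stretches shared with other genes were counted as 75-base words.

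The members and lists were chosen with earlier results of these data known. The text names all members, the targeted genes, the regulators, from each other list up to 2 rises and 2 falls per mutant, and the 3 genes most like Phgdh and Asns. Some genes that this rule names are not reported here. Alternatives were other size factors, filters, DESeq2 1.42.0, fits of the compared libraries, a replicate block, a chromosome offset, an adjusted p of 0.05 and leaving out each library.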

Additional observations from a re-analysis of the deposited data

Results flagged for a closer look

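For 2 genes the response to the mutations differed by more than a fold of 2 between the mutants, tested as the difference itself. Aldh1l2 had a log2 fold change of 2.18 between G9Gl and S1S2 (edgeR adjusted p = 1.92e-07), with -2.64 against WT in S1S2 and -0.46 in G9Gl. Slc1a4 had a log2 fold change of 1.10 between G9Gl and S1S2 (adjusted p = 3.99e-07), with -0.79 against WT in S1S2 and 0.31 in G9Gl, the latter not past the test.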

How the results depend on the processing

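The 7 falls in S1S2 were called under every alternative that was run. The number of genes past the adjusted p ranged over left-out libraries from 7 to 9 in S1S2, from 1 to 3 in G9Gl and from 7 to 8 between the mutants (reported: 8, 2 and 8). With a fold of 2 it ranged from 1 to 4 in S1S2, was 0 in G9Gl and ranged from 1 to 4 between the mutants (reported: 3, 0 and 2). Without a filter 5 genes passed in G9Gl, and with DESeq2 the counts were 8, 2 and 7. Over all tested genes, same-numbered libraries correlated between -0.0686 and 0.124 in their deviations, which cannot exclude a pairing. Replicate 3 was the highest in 9 of the 10 genes in WT and in S1S2, but in G9Gl this was replicate 1. The replicate block gave 9, 3 and 8 genes, with Psat1 in S1S2 (log2 fold change -0.23, adjusted p = 0.00975) and Slc1a4 in G9Gl (0.32, adjusted p = 0.00273) gained. An adjusted p of 0.05 gave 9, 3 and 8. Directions changed only for genes not past the test, apart from Psat1 between the mutants. With the chromosome offset, alone and with the replicate block, its log2 fold change was 0.17 and 0.18 and that of Phgdh 0.074 and 0.074. For Shmt1 between the mutants it was 0.0030 without a filter and 0.0027 with at least 10 counts in every library. Over left-out libraries the log2 fold change ranged from -0.069 to 0.0058 for Phgdh in S1S2, and in G9Gl from -0.26 to 0.032 for Psph, from -0.26 to 0.034 for Asns, from -0.14 to 0.0015 for Shmt2 and from -0.0025 to 0.12 for Mthfd1l. Between the mutants it ranged from -0.10 to 0.0066 for Phgdh and from -0.032 to 0.027 for Shmt1. The causes were not tested. With at least 10 counts in every library 728, 682 and 962 of all genes passed with a fold of 2 (reported: 1398, 1580 and 2028).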

Other observations

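The mitochondrial genome, whose products work in the compartment of Shmt2, Mthfd2, Mthfd1l and Aldh1l2, gave 23 tested genes. Their median log2 fold change was -0.74 in S1S2 and -0.33 in G9Gl, and 0.44 between G9Gl and S1S2. Whether these shifts are linked to those of the 4 enzyme genes was not tested.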
